A study of Homo sapiens with 24 samples.

Results

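The response of H460 cells to depletion of protein kinase C delta (PKCδ) was described from 6 of the 24 arrays of the study, chosen by their titles: 3 arrays of H460 cells that expressed the PKCδ shRNA δ193 and 3 of H460 cells that expressed the scrambled shRNA δscr. H460 is a non-small cell lung cancer line with mutant K-ras, and the study counted it with A549 among its K-ras independent lines, with H2009 and H441 as the dependent ones. All 4 lines were stably transduced with lentiviral vectors and kept under puromycin, in the same medium with serum, so the δscr cells also carried a vector and its selection. The groups compared were δ193 against δscr in H460, with the same pair of groups in A549, H441 and H2009 (3 biological replicates in each of the 8 groups) as the measure of what was particular to H460. Total RNA was measured on Affymetrix Human Gene 1.0 ST arrays, and levels are given as the deposited log2 values after RMA, the robust multi-array average, so that a difference of 1 is a doubling. Only 1 PKCδ shRNA was on the arrays, and effects of this sequence on other transcripts cannot be told apart from those of PKCδ depletion.

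PKCδ, encoded by PRKCD, is a serine and threonine kinase of the PKC isoforms that are activated by diacylglycerol without calcium. It is known for its part in apoptosis after DNA damage in many epithelial cells and for promoting survival and growth in a number of tumour types, and it acts upstream of MAP kinases, NF-κB and integrin-linked signalling. The gene groups below include these routes, and run from the kinase family and the ERK feedback genes through cytokines and the matrix to metabolic enzymes. They were chosen with earlier results of these data known, and many lie outside these routes.

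PRKCD itself measured 6.42, 6.28 and 6.16 in the δ193 arrays, against 8.27, 8.34 and 8.35 in the δscr arrays. The groups stood far apart, and all 6 arrays went with their labels. The change was -2.03 ± 0.20 log2 units with its standard error (adjusted p = 3.80e-07, limma with the Benjamini-Hochberg adjustment, as for every adjusted p here), which left 24.4% of the δscr level. Since RNA was taken from whole cultures, fewer cells with a transcript and less of it in each cell cannot be told apart, here and for every gene that follows. Of the markers of carcinoma cells, KRT8 (11.77 in δ193 and 11.79 in δscr cells), KRT18 and KRT7 were abundant, while EPCAM (5.44 in δ193 and 5.45 in δscr cells) lay below the median gene. Of 26 epithelial markers measured, 11 lay above the median gene in δ193 cells and 12 in δscr cells. The changes of KRT19 and CDH1, which went in opposite directions, are given further below. Of 19 immune and 19 fibroblast or endothelial markers none was called, and the highest were CD68, a lysosomal protein that tumour cells also make (10.70 in δ193 and 10.44 in δscr cells), and COL1A1 (6.36 in δ193 and 6.13 in δscr cells). The mean level of the immune markers was 4.33 to 4.37 over the δ193 arrays, against 4.19 to 4.32 over the δscr arrays, and that of the fibroblast and endothelial markers 3.86 to 3.93 over the δ193 arrays, against 3.74 to 3.81 over the δscr arrays. Both were higher in δ193 cells without overlap, with median changes of 0.12 and 0.10. Among all genes of low level the median change was also above 0. It was 0.04 at mean levels up to 3.96 and 0.08 from there to 5.76. The part of these markers, or of low signal, in the results was not tested.

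Replicates lay close together. The correlation over all genes was 0.9971 to 0.9977 within a group and 0.9926 to 0.9937 between the groups, array medians were 5.74 to 5.77, and the median SD of a gene within groups was 0.0923 in H460, against 0.115 in A549, 0.184 in H441 and 0.117 in H2009. Called genes are those with an adjusted p under 0.05 and a change of at least 0.32 in size on the log2 scale. Of 18417 genes, 370 were called higher in δ193 cells (2.01%) and 633 lower (3.44%), 1003 in all (5.45%). The groups of 3 arrays did not overlap for 2968 genes that were higher (16.1%) and 3329 that were lower (18.1%), among them 999 of the called genes. Most changes were moderate, with a median fold of 1.46 among genes called higher and 1.42 among those called lower. A fold of 2 or more was reached by 48 genes called higher and 57 called lower, and a fold of 4 or more by 5 and 7 of them. The median change over all genes was 0.01. With single H460 arrays left out the count of calls was 628 to 792, and it fell by over 1.5 times without δ193 replicate 3 (628), δscr replicate 3 (646) or δscr replicate 2 (652). Of the 1003 calls, 501 (175 higher and 326 lower) were kept in all 6 such fits. A call that was lost in at least 1 of them is named below as array-dependent, with its highest adjusted p.

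**Figure D1:**
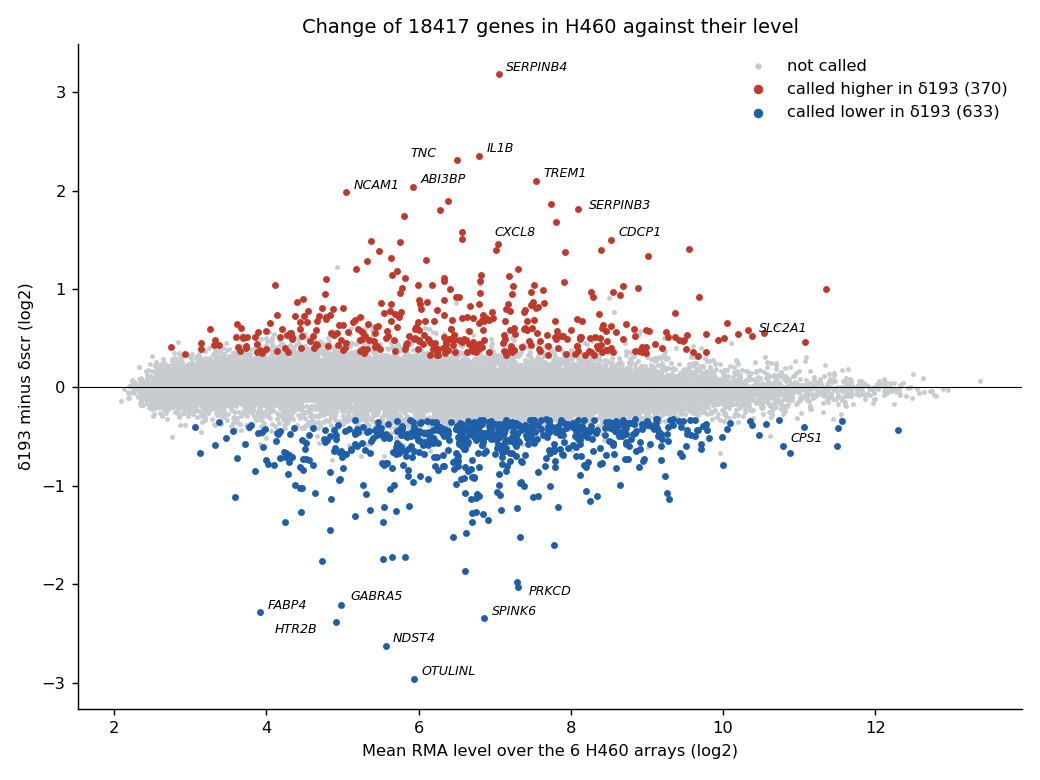
Each point is 1 of 18417 genes, with its mean RMA level over the 6 H460 arrays (log2) on the horizontal axis and its change, δ193 minus δscr (log2), on the vertical axis. Red points are the 370 genes called higher and blue points the 633 called lower; called genes are few at the lowest levels, up to 3.96, and the longest changes in each direction are SERPINB4 (3.18) and OTULINL (-2.96).

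Calls were spread unevenly over the range of levels. With the genes split by level into 4 sets of like size, 0.87% were called in the lowest set and 4.69%, 9.69% and 6.54% in the next ones. In the third set 294 genes were lower and 152 higher, and in the highest 204 were lower and 97 higher. From the lowest set to the highest, the median change was 0.04, 0.08, -0.03 and -0.04.

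The largest increase was in SERPINB4, a serpin known as squamous cell carcinoma antigen 2, which inhibits serine and cysteine proteases. It measured 8.68, 8.68 and 8.58 in the δ193 arrays, against 5.28, 5.60 and 5.51 in the δscr arrays, a change of 3.18 ± 0.24 (adjusted p = 6.68e-09). Its neighbour and near copy SERPINB3, squamous cell carcinoma antigen 1, measured 8.98, 9.01 and 9.0 in δ193 cells and 7.14, 7.14 and 7.26 in δscr cells. The groups did not overlap for either gene, and SERPINB3 changed by 1.82 ± 0.44 (adjusted p = 0.0117). Since the pair share most of their sequence, probes may read both transcripts, and the values are not independent. The 300-base windows around the start sites of the pair, from 250 bases before the start to 50 after, are shown because they differ at only 4 positions (98.7% identical), which are in capitals. These and the other promoters here are RefSeq sequences of build GRCh38.p14, given 5′ to 3′ along the gene.
SERPINB4, chr18:63644207-63644506, minus strand: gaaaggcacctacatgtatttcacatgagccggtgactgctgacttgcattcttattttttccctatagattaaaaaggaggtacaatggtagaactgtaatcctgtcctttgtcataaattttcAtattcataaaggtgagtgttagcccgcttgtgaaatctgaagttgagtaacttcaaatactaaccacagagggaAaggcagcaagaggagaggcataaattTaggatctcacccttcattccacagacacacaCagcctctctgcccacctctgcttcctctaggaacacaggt
SERPINB3, chr18:63661844-63662143, minus strand: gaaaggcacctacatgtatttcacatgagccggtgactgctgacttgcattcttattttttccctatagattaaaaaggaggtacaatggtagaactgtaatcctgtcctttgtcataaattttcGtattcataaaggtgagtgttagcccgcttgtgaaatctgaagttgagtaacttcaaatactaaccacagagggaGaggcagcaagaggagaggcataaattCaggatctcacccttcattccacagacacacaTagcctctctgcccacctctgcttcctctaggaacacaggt

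IL1B, TREM1, AIM2, CXCL8 and IL11 are genes of inflammation that were called higher. IL1B, the cytokine interleukin-1β, measured 7.98, 7.94 and 7.99 in δ193 cells and 5.33, 5.57 and 5.95 in δscr cells (2.35 ± 0.40, adjusted p = 0.000446). The δ193 arrays lay close together, and the δscr arrays spread wider, well below them. TREM1, a receptor of myeloid cells that amplifies inflammatory signals, measured 8.58, 8.65 and 8.56 in δ193 cells, against 6.42, 6.59 and 6.49 in δscr cells (2.10 ± 0.27, adjusted p = 1.54e-05). AIM2, a sensor of DNA in the cytosol that assembles an inflammasome, measured 6.65, 6.76 and 6.61 in δ193 cells, against 4.91, 4.91 and 4.98 in δscr cells. With a change of 1.74 ± 0.08 it had the lowest adjusted p of the called genes named here (3.35e-12). CXCL8, the neutrophil attractant interleukin-8, measured 8.80, 8.56 and 8.59 in δ193 cells and 6.89, 7.09 and 6.91 in δscr cells (1.69 ± 0.35, adjusted p = 0.00351). IL11, a cytokine that signals through gp130, measured 7.38, 7.31 and 7.40 in δ193 cells, against 5.81, 5.78 and 5.76 in δscr cells (1.58 ± 0.10, adjusted p = 9.39e-10). The groups were separate for each of these genes.

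**Figure D2:**
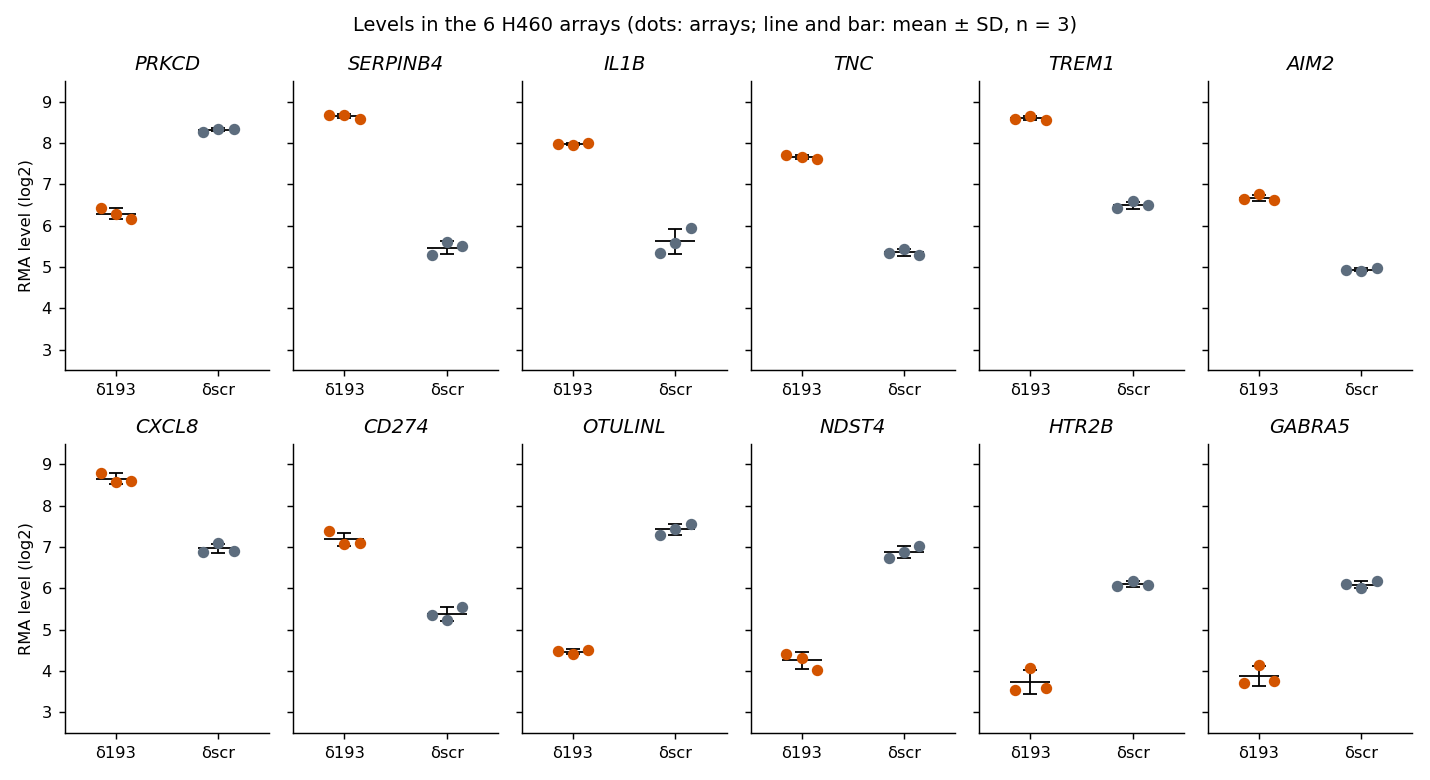
RMA level (log2, vertical axis) of 12 genes in the 6 H460 arrays, with δ193 on the left and δscr on the right of each panel; dots are arrays, the line and bar the mean ± SD (n = 3). PRKCD averages 6.29 in δ193 and 8.32 in δscr arrays, the next 7 genes are higher and the last 4 lower in δ193 cells, and no group overlaps its partner.

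Of 44 cytokine and chemokine genes measured, 5 were higher and 2 lower (median change 0.10). The chemokine CCL5, which attracts T cells and monocytes, was the fourth that held in every fit, at 1.04 ± 0.19 (adjusted p = 0.00141), with levels of 6.76, 6.76 and 6.57 in δ193 cells, against 5.63, 5.80 and 5.55 in δscr cells. CXCL14 (0.44, highest adjusted p 0.198), CXCL16 (-0.75, 0.0688) and CSF1 (-0.46, 0.137) were array-dependent, and CSF1 was also lost under quantile and CXCL14 under cyclic loess normalization. Close relatives of the genes that rose did not pass: CXCL1 had a change of 0.00 ± 0.25 (adjusted p = 1.0), CXCL2 of -0.00 ± 0.25 (0.998), IL1A of 0.48 ± 0.41 (0.637) and IL6 of 1.23 ± 0.46 (0.142). For IL6 the δ193 arrays measured 5.62, 5.64 and 5.38 and the δscr arrays 4.38, 4.29 and 4.28, without overlap, and with the H460 arrays alone IL6 was called higher (adjusted p = 6.14e-05), as was IL1A (0.00247).

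Among 24 ligands and enzymes that act on immune cells 4 were called, all higher and all kept in every fit (median of the list 0.08). CD274, the checkpoint ligand PD-L1, measured 7.38, 7.08 and 7.10 in δ193 cells and 5.35, 5.22 and 5.55 in δscr cells (1.81 ± 0.29, adjusted p = 0.000296). PDCD1LG2, which encodes PD-L2, measured 6.30, 6.23 and 5.99 in δ193 cells and 4.99, 4.54 and 4.83 in δscr cells (1.39 ± 0.20, adjusted p = 8.80e-05). NT5E, the ectonucleotidase CD73 that makes adenosine, changed by 1.03 ± 0.15 (adjusted p = 9.64e-05). PVR, the poliovirus receptor and a ligand of TIGIT, changed by 0.41 ± 0.09 (adjusted p = 0.00446). CD276 (0.00) and CD47 (0.10) were not called.

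Of 36 genes of the NF-κB route 2 were higher and 5 lower, and none of the 5 subunits was called. ICAM1, an adhesion molecule for leukocytes, changed by 0.85 ± 0.19 (adjusted p = 0.00669), with 6.15, 6.09 and 5.95 in δ193 cells, against 5.34, 5.07 and 5.23 in δscr cells. TERF2IP, a telomere protein that also binds the NF-κB kinase complex (-0.92, adjusted p = 1.32e-06), TNFAIP2 (-0.70, 0.00121) and TLR3, the receptor for double-stranded RNA (-0.55, 0.00562), fell. The inhibitor NFKBIA (-0.48, highest adjusted p 0.155), the kinase MAP3K14 (-0.47, 0.107) and the co-receptor CD14 (0.57, 0.182) were array-dependent, and NFKBIA and CD14 also lost their calls after quantile or cyclic loess normalization.

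In the gp130 and JAK-STAT group of 36 genes, the ligand IL11 rose while LIFR, the receptor for leukemia inhibitory factor, fell by 0.75 (standard error 0.13, adjusted p = 0.000562), with 7.09, 7.0 and 6.82 in δ193 cells, against 7.75, 7.66 and 7.77 in δscr cells. The other 4 calls were array-dependent: STAT3 (0.32, highest adjusted p 0.153), JAK1 (-0.32, 0.104), IL6ST, which encodes gp130 itself (-0.36, 0.121), and IL10RB (-0.39, 0.0882). JAK1 and IL6ST also lost their calls under quantile or cyclic loess normalization, and JAK1 when the array medians were set equal.

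Of 45 interferon-stimulated genes 1 was higher and 5 lower (median -0.09). SAMD9L fell by 1.13 (standard error 0.13, adjusted p = 5.03e-06) and its neighbour SAMD9 by 0.80 (adjusted p = 0.00410), both restriction factors that limit poxviruses and cell growth. The ADP-ribosyltransferase PARP14 fell by 0.46 (adjusted p = 0.00768), and OASL, a relative of the OAS enzymes, rose by 0.51 (adjusted p = 0.0114). OAS1 (-0.45, highest adjusted p 0.0528) and HERC5 (-0.49, 0.147) were array-dependent. MX1 (-0.09), IFIT1 (0.25), ISG15 (0.43) and the transcription factor IRF9 (0.17) were not called, though ISG15 was called higher with the H460 arrays alone (adjusted p = 0.00760).

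Of 13 kinases of the PKC family measured, PRKCD, PRKD2 and PKN3 were called lower and none higher, and the last pair were array-dependent (-0.45, highest adjusted p 0.142; -0.44, 0.155) and were also lost under quantile normalization. The conventional isoform PRKCA measured 8.20, 8.23 and 8.14 in δ193 cells, against 8.17, 8.26 and 8.29 in δscr cells, a change of -0.05 with a 95% interval of -0.21 to 0.11. PRKCE, an isoform that like PKCδ needs no calcium, changed by 0.23 (interval -0.15 to 0.62), and the atypical PRKCI by -0.15 (-0.33 to 0.03). Among 9 diacylglycerol kinases, which remove the lipid that activates PKCδ, DGKA alone was called, with 7.62, 7.50 and 7.51 in δ193 cells and 8.08, 8.07 and 8.36 in δscr cells (-0.63 ± 0.14, adjusted p = 0.00541).

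Of 36 genes that ERK induces, many of which feed back on the pathway, 9 were called higher and 1 lower (27.8% in all), beside 5.45% of all genes, and 26 were not called. The median of the group was 0.31 against 0.01 over all genes, and 3 of the 10 calls were kept in every fit. SPRY2, a Sprouty protein that restrains receptor tyrosine kinase signalling, measured 6.73, 6.81 and 6.57 in δ193 cells and 6.13, 5.71 and 6.06 in δscr cells (0.74 ± 0.16, adjusted p = 0.00416). FOSL1, a FOS relative in the transcription factor AP-1, changed by 0.50 and was kept in every fit. The other 7 were array-dependent: FOS (0.68, highest adjusted p 0.165), DUSP10 (0.61, 0.0584), SPRY4 (0.58, 0.120), JUN (0.57, 0.109), FOSB (0.55, 0.0872), SPRY1 (0.43, 0.0962) and JUND (0.37, 0.264). DUSP9, a phosphatase of ERK, moved the other way, with 7.81, 7.71 and 7.80 in δ193 cells, against 8.32, 8.74 and 8.63 in δscr cells (-0.79 ± 0.15, adjusted p = 0.00143).

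Letters of the AP-1 site were counted in the promoters. TGANTCA, which is the same read on either strand, was found in 8.13% of the windows of 283 genes called higher (23 genes) and in 4.09% of those of 465 called lower, beside 5.58% of all 14239 windows of 300 bases. The NF-κB letters GGAATTTCC and a pair of longer forms, GGG and NN followed by TTTCC or TTCCC, searched on both strands, were found in 3.89% of the windows of genes called higher, in 4.09% of those called lower and in 4.56% of all. The cyclic AMP element TGACGTCA was found in 3.53% of the windows of genes called higher, 2.15% of those called lower and 2.65% of all, and the box TATAAA in 13.43%, 7.74% and 9.0% of these sets. The letters TNGCGTG of the aryl hydrocarbon receptor element were found in 2.83% of the windows of genes called higher, 3.87% of those called lower and 6.6% of all, and CCAAT in 35.34%, 38.06% and 36.28%, each searched on both strands. A match is a stretch of letters, and binding was not measured. The windows of 4 genes that rose and hold the AP-1 letters, which are in capitals, are shown so that their place can be read: the last 50 bases of each window follow the start site. They were picked from the 23 genes called higher with these letters. The CXCL8 window also holds the NF-κB letters GGAATTTCC, left in lower case.
CXCL8, chr4:73740319-73740618, plus strand: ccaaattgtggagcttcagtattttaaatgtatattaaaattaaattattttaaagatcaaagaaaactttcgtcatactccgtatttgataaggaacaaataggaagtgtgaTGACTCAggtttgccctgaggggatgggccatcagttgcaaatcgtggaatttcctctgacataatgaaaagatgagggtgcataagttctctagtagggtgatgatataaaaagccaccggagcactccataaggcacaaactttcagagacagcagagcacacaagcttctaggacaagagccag
IL11, chr19:55370414-55370713, minus strand: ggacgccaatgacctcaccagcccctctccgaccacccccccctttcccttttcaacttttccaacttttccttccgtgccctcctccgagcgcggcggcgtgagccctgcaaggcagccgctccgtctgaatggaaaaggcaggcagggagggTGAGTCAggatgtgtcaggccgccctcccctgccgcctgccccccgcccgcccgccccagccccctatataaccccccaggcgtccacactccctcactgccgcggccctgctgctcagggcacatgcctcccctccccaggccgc
AIM2, chr1:159076717-159077016, minus strand: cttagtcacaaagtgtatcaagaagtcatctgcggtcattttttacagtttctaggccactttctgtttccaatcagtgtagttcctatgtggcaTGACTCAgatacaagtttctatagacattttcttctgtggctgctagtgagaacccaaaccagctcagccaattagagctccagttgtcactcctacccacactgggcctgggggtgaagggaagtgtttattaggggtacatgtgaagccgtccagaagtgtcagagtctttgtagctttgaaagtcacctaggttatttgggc
PLAUR, chr19:43670120-43670419, minus strand: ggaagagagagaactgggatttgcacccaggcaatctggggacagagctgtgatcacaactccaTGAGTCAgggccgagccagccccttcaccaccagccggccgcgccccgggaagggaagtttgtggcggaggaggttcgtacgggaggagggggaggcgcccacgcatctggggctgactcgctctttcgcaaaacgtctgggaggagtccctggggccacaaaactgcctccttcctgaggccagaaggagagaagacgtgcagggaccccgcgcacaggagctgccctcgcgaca

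PLAUR, the urokinase receptor, was the only called member of the matrix proteases and plasminogen system that rose, at 8.77, 8.82 and 8.91 in δ193 cells, against 8.28, 8.15 and 8.20 in δscr cells (0.63 ± 0.11, adjusted p = 0.000957). Of 27 metalloproteinases and related genes none was higher and 4 were lower. ADAM9, a sheddase, fell by 0.43 (adjusted p = 0.00175). MMP2, the gelatinase that cleaves type IV collagen (-0.60, highest adjusted p 0.0988), MMP16, which activates it (-0.51, 0.117), ADAM15 (-0.33, 0.0672) and the inhibitor TIMP2 (-0.39, 0.0896) were array-dependent. MMP2 and ADAM15 also lost their calls under quantile normalization, and TIMP2 and ADAM15 under cyclic loess.

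Of 53 matrix genes 8 were called higher and 7 lower. Of the 23 glycoproteins 8 were higher and 2 lower, of 21 collagens 2 were lower and of 9 laminins 3. TNC, tenascin-C, which is deposited in wounds and tumour stroma, measured 7.71, 7.66 and 7.61 in δ193 cells, against 5.33, 5.43 and 5.29 in δscr cells (2.31 ± 0.18, adjusted p = 7.54e-09). EDIL3, an integrin ligand, rose by 1.4 (adjusted p = 2.15e-07), the basement membrane protein NID2 by 1.01 (0.000125) and FBN1, fibrillin-1, by 0.87 (0.000113). ABI3BP, a matrix-associated protein outside the list, measured 6.98, 7.04 and 6.83 in δ193 cells and 4.73, 5.0 and 5.0 in δscr cells (2.04 ± 0.16, adjusted p = 8.69e-09). Of the laminin chains, LAMA4 measured 4.20, 3.95 and 4.17 in δ193 cells, against 5.60, 5.36 and 5.70 in δscr cells (-1.45 ± 0.10, adjusted p = 3.21e-09), LAMB2 fell by 0.60 and LAMA1 by 0.42. The glycoprotein FBLN1, fibulin-1, fell by 0.60 (adjusted p = 0.00490). Both collagens, COL12A1 (-0.81, highest adjusted p 0.118) and COL5A2, were array-dependent and were lost under quantile normalization. Of the 15 calls 8 were kept in every fit.

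Of 25 integrins, the receptors for this matrix, 2 were called (8.0%, beside 5.45% of all genes). Both were lower and both were kept in every fit. ITGAV, the αv chain, measured 7.55, 7.46 and 7.42 in δ193 cells and 7.80, 7.86 and 8.08 in δscr cells (-0.44 ± 0.08, adjusted p = 0.00171). ITGB5, a β chain that pairs with it, measured 8.71, 8.88 and 8.69 in δ193 cells, against 9.27, 9.41 and 9.32 in δscr cells (-0.57 ± 0.10, adjusted p = 0.000540). ITGB3, another β chain that pairs with αv, changed by -0.22 ± 0.17 (adjusted p = 0.594) and ITGB1 by -0.10 ± 0.08 (0.637). In the study's qRT-PCR, which also used PKCδ shRNAs other than δ193, ITGAV did not change consistently in A549 or H460. Of 25 focal adhesion adaptors, 4 were higher and 5 lower. FERMT2 (kindlin-2), which activates integrins from inside the cell, fell by 0.73 (adjusted p = 1.02e-05), and its relative FERMT3 (kindlin-3) rose by 0.57 (0.00224). The tensins TNS1 and TNS3, which link integrins to actin, fell by 0.69 and 0.67 (adjusted p = 0.000430 for both), and PALLD, palladin, rose by 0.60 (0.000622).

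Of 37 semaphorins, plexins, neuropilins and other guidance genes, 7 were lower and 1 higher, 6 of the 8 kept in every fit. SEMA6D measured 6.17, 6.29 and 6.48 in δ193 cells, against 8.20, 8.33 and 8.32 in δscr cells (-1.97 ± 0.14, adjusted p = 2.71e-09). SEMA3E fell by 0.91, SEMA3B by 0.70, the receptor ROBO1 by 0.62 and NRP2 by 0.56, while SEMA7A, which is anchored in the membrane and binds β1 integrins, rose by 0.79 (adjusted p = 0.00273).

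Of the 14 TGF-β and BMP ligands 6 were called higher (42.9%, beside 2.01% of all genes) and none lower (median 0.32). In the whole list of 48, 4 of the 12 calls were kept in every fit, TGFB2, BMP2, SMAD5 and ID2. TGFB2 measured 6.86, 6.92 and 6.94 in δ193 cells and 5.95, 5.73 and 6.04 in δscr cells (1.0 ± 0.17, adjusted p = 0.000473), and BMP2 rose by 0.56. GDF15 (0.94, highest adjusted p 0.121) and BMP6 (0.71, 0.0617) were array-dependent, and GDF15 was also lost under quantile and cyclic loess normalization. Of 22 receptors, SMADs and binding proteins 1 was higher and 3 were lower, with SMAD5 at -0.49. ID2, an inhibitor of differentiation that BMP signals induce, fell by 0.77 (adjusted p = 0.000765). Of 13 EGFR family genes, HBEGF, a ligand of EGFR, rose by 0.79 (adjusted p = 0.00405) and NRG4, a ligand of ERBB4, fell by 0.65 (0.00404). EREG (0.85, highest adjusted p 0.149), NRG1 (0.53, 0.0663) and the receptor ERBB2 (-0.41, 0.0916) were array-dependent, and EREG was lost under quantile and cyclic loess normalization. Among the other receptor kinases and ligands, MET (-0.41) and INSR (-0.50) fell and PDGFC rose (0.80, adjusted p = 0.00203).

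CDCP1, a membrane protein that binds PKCδ once Src has phosphorylated it, measured 9.30, 9.22 and 9.33 in δ193 cells and 7.79, 7.76 and 7.80 in δscr cells (1.5 ± 0.17, adjusted p = 2.71e-06). NCAM1, a neural cell adhesion molecule, measured 5.98, 5.98 and 6.16 in δ193 cells, against 4.0, 3.81 and 4.36 in δscr cells (1.98 ± 0.14, adjusted p = 3.07e-09). RSPO3, an R-spondin that strengthens Wnt signals, measured 7.45, 7.39 and 7.17 in δ193 cells and 5.40, 5.39 and 5.53 in δscr cells (1.90 ± 0.14, adjusted p = 3.92e-09). The groups of all 3 genes were far apart. Among the largest increases there was also a gene of the olfactory receptor family, OR51B4 (1.87, adjusted p = 0.000315), and the adhesion receptor ADGRG3 (1.51, array-dependent, highest adjusted p 0.0556).

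The largest decrease was in OTULINL, a membrane-bound relative of the deubiquitinase OTULIN that lacks its activity. It measured 4.49, 4.40 and 4.50 in δ193 cells, against 7.28, 7.44 and 7.55 in δscr cells (-2.96 ± 0.16, adjusted p = 3.18e-11). NDST4, an enzyme that modifies heparan sulfate, measured 4.41, 4.33 and 4.03 in δ193 cells and 6.72, 6.89 and 7.03 in δscr cells (-2.63 ± 0.16, adjusted p = 2.62e-10). SPINK6, an inhibitor of kallikrein proteases, measured 5.66, 5.81 and 5.60 in δ193 cells, against 7.96, 8.14 and 8.01 in δscr cells (-2.35 ± 0.22, adjusted p = 2.06e-07). FABP4, a carrier of fatty acids, measured 2.78, 2.77 and 2.78 in δ193 cells, which is near the lower end of the array's range, against 4.84, 5.45 and 4.91 in δscr cells (-2.29 ± 0.18, adjusted p = 7.42e-09).

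Several of the genes that fell most belong to families with parts in the nervous system. HTR2B, the serotonin receptor 2B, measured 3.53, 4.06 and 3.59 in δ193 cells, against 6.05, 6.19 and 6.09 in δscr cells (-2.38 ± 0.13, adjusted p = 3.18e-11). GABRA5, a subunit of the GABA-A receptor, measured 3.71, 4.15 and 3.76 in δ193 cells and 6.10, 6.00 and 6.17 in δscr cells (-2.21 ± 0.15, adjusted p = 9.39e-10). In both genes the second δ193 array was the highest of its group and still far below the δscr arrays. CDH8, a cadherin, changed by -1.76 ± 0.14, SYT14, a synaptotagmin, by -1.75 ± 0.15, EPHA3, an ephrin receptor, by -1.60 ± 0.14, and SH3GL2, the endocytic protein endophilin A1, by -1.52 ± 0.16 (largest adjusted p = 1.15e-06). This set was put together after the values were seen and was given no test. Other genes of this kind rose, among them NCAM1 (1.98) and GABRA2 (1.47). The 15 GABA-A receptor subunits measured had a median change of 0.06, with 3 called lower and 1 higher, beside 3.44% and 2.01% of all genes.

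Nuclear receptors and metabolic regulators were also among the largest decreases. RORB measured 5.54, 5.75 and 5.74 in δ193 cells, against 7.35, 7.63 and 7.65 in δscr cells (-1.87 ± 0.13, adjusted p = 1.17e-09). THRB, a thyroid hormone receptor, measured 4.96, 4.88 and 5.03 in δ193 cells and 6.60, 6.77 and 6.66 in δscr cells (-1.72 ± 0.13, adjusted p = 4.92e-09). PPARGC1A, the coactivator PGC-1α that drives mitochondrial genes, measured 4.91, 4.69 and 4.76 in δ193 cells, against 6.54, 6.37 and 6.60 in δscr cells (-1.72 ± 0.16, adjusted p = 1.69e-07).

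Of 31 NRF2 targets, which detoxify electrophiles and make glutathione, 5 were lower and 2 higher (median -0.13), and all 5 decreases were kept in every fit. The aldo-keto reductase AKR1B10 measured 8.74, 8.79 and 8.65 in δ193 cells, against 9.79, 9.93 and 9.85 in δscr cells (-1.13 ± 0.14, adjusted p = 8.99e-06). GCLC, which catalyses the first step of glutathione synthesis, measured 8.82, 8.79 and 8.74 in δ193 cells and 9.63, 9.78 and 9.63 in δscr cells (-0.90 ± 0.12, adjusted p = 3.10e-05). The efflux pump ABCC3 fell by 1.0, AKR1C3 by 0.47 and AKR1C2 by 0.43, and since the AKR1C genes share most of their sequence, probes may read several of them. Of 30 aldehyde and retinoid enzymes 3 fell and none rose: ALDH1A1, which makes retinoic acid, by 1.07 (adjusted p = 4.03e-08), the retinal reductase DHRS3 by 0.89 (8.99e-06) and ALDH3B1 by 0.62 (0.00141).

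Of 8 genes of the aryl hydrocarbon receptor 3 were called higher and none lower, and 1 of the 3 was kept in every fit. CYP1B1, a monooxygenase that the receptor induces, measured 8.49, 8.45 and 8.39 in δ193 cells, against 7.15, 7.45 and 7.49 in δscr cells (1.08 ± 0.13, adjusted p = 4.68e-06). CYP1A1 (0.71, highest adjusted p 0.0911) and the receptor AHR itself (0.52, 0.0536) were array-dependent, and CYP1A1 was lost under quantile normalization.

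Of 79 lysosomal genes 9 were lower and 2 higher (median -0.09), with 8 of the 9 among 48 hydrolases. CTSH, cathepsin H, measured 5.02, 5.30 and 4.99 in δ193 cells, against 6.32, 6.12 and 5.97 in δscr cells (-1.03 ± 0.15, adjusted p = 7.76e-05). CTSD, the abundant protease cathepsin D, measured 11.23, 11.21 and 11.18 in δ193 cells and 11.80 in each of the δscr arrays (-0.59 ± 0.08, adjusted p = 6.22e-05). GALC, which degrades galactosylceramide, fell by 0.56, FUCA1 by 0.50 and the acid ceramidase ASAH1 by 0.47. NPC1, the cholesterol exporter of the lysosome (0.54, highest adjusted p 0.0956), and CTSB (0.36, 0.115) were array-dependent. In the sphingolipid list of 38, the ganglioside synthase ST3GAL5 fell by 1.09 (adjusted p = 2.57e-05), and SPHK1, which makes sphingosine 1-phosphate, rose by 0.70 (0.000921).

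Of 48 cell cycle genes 2 were called, E2F8 (-0.60, highest adjusted p 0.211; also lost with array medians set equal and under quantile and cyclic loess normalization) and CDK6 (-0.48, 0.117), both lower and both array-dependent, which is 4.2% of the list beside 5.45% of all genes. MKI67, a marker of cycling cells, changed by -0.09 and CCNB1 by -0.00. Of 29 p53 targets 2 were higher and 3 lower. MDM2, the ligase that degrades p53, measured 9.73, 9.80 and 9.71 in δ193 cells, against 9.04, 8.92 and 9.0 in δscr cells (0.76 ± 0.11, adjusted p = 4.69e-05), while PLK2, ZMAT3 and EDA2R fell by 0.59, 0.58 and 0.57. Of 24 BCL2 family genes BCL2 fell by 0.57 (adjusted p = 0.00109) and the mitophagy receptor BNIP3L by 0.56 (array-dependent, highest adjusted p 0.140, and lost under quantile and cyclic loess normalization). Of 35 genes of hypoxia and glycolysis 3 were higher and 1 lower, the increases with HK2, hexokinase 2, by 0.58 (adjusted p = 0.00236) and the glucose transporter SLC2A1, with 10.60, 10.62 and 10.69 in δ193 cells and 10.11, 10.05 and 10.18 in δscr cells (0.53 ± 0.09, adjusted p = 0.000486). Of 33 stress genes SLC38A2 alone was called, and it was array-dependent (0.55, highest adjusted p 0.155) and lost under quantile and cyclic loess normalization. FDPS and MSMO1 of the 26 sterol and fatty acid genes were lower, by 0.44 in each, and MSMO1 was array-dependent (highest adjusted p 0.0570).

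Of 26 epithelial markers 2 were called, both higher. KRT19 rose, with 7.88, 7.96 and 7.88 in δ193 cells, against 6.68, 6.70 and 6.73 in δscr cells (1.20 ± 0.12, adjusted p = 2.15e-07), and the protease ST14 (0.40) was array-dependent (highest adjusted p 0.206) and lost under cyclic loess normalization. CDH1, E-cadherin, had a change of -0.70 that did not pass (adjusted p = 0.104), and it was called lower in 6 of the alternatives, among them the H460 arrays alone (adjusted p = 0.000461). Of 26 mesenchymal markers 7 were called (26.9%, beside 5.45% of all genes), 4 of them kept in every fit. Of the 7, 4 were higher, with the repressor ZEB2 at 0.77 (adjusted p = 0.000212, and 0.45 to 0.86 in the alternatives). The other 3 were lower, with the splicing factor RBFOX2 at -0.80 (1.56e-06) and the calcium-binding protein S100A4 at -0.93 (0.000400). CALB2, calretinin, rose by 1.46 (adjusted p = 1.49e-06), and the secreted proteins TCN1 and CRISP3 by 1.49 and 1.04. Of 24 genes typical of liver, which H460 expresses in part, 1 was higher and 4 lower. CPS1, an enzyme of the urea cycle, fell by 0.59 at levels of 10.49, 10.50 and 10.47 in δ193 cells and 11.09, 11.08 and 11.07 in δscr cells (adjusted p = 1.02e-05), and HNF4G by 0.61. Of 27 HOX genes 1 was higher and 3 lower. HOXC5 rose by 1.28 (adjusted p = 2.50e-08), and HOXA2 and HOXD13 fell by 0.81 and 0.58. Of 40 receptors with 7 transmembrane helices and TRP channels 3 were higher and 3 lower, with BDKRB1, the bradykinin B1 receptor, at 1.38 (adjusted p = 4.03e-08), the irritant channel TRPA1 at 1.11 (0.000489) and the prostaglandin receptor PTGER2 at 0.67 (0.00252). Of 43 complement and coagulation genes 2 were higher and 4 lower, with F5, coagulation factor V, at -1.07 (adjusted p = 5.47e-07). In the 41 lists together, 1230 genes were measured, of which 88 were higher and 109 lower. The shares over all genes, 2.01% higher and 3.44% lower, stand beside this and every list count above. The lists were chosen with earlier results of these data known, so their counts are not independent evidence.

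**Figure D3:**
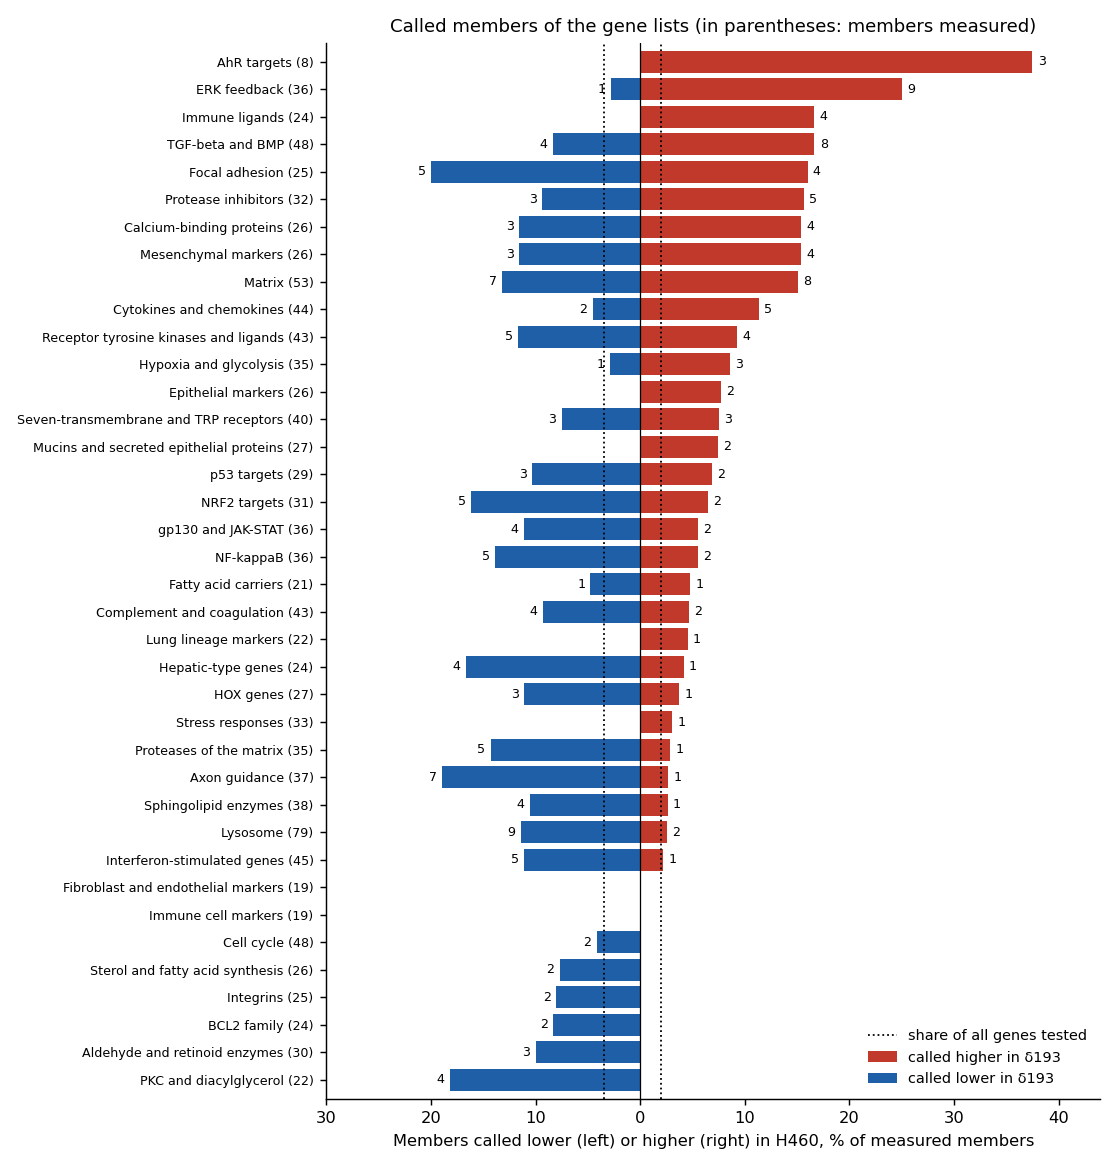
Members of each list called higher (red, to the right) or lower (blue, to the left) in δ193 H460 cells, in percent of the members measured, which are counted in parentheses; the number at each bar is the count of genes. Dotted lines are the shares of all 18417 genes (2.01% higher, 3.44% lower), and the ERK feedback list stands at 9 of 36 higher, while no immune or fibroblast and endothelial marker was called.

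The study named 8 genes as changed in every line and 14 for A549 and H460, of which 8 and 13 were measured here. It chose them on these arrays, so their counts are not independent evidence. All 8 of the first list were lower in H460, among them ADA, adenosine deaminase (-1.10, adjusted p = 1.31e-06), RAB23 (-0.99, 3.08e-06) and the sorting nexin SNX27 (-0.82, 1.22e-06), which were kept in every fit, as were LIFR, DGKA and GALC, and IL6ST and BNIP3L were array-dependent. Of the 13, 4 were higher and 7 lower, 4 of the 11 kept in every fit (MDM2, MAP2K3 at 0.52, TLR3 and LIFR), and CREB3 (0.10, adjusted p = 0.653) and IL20RB (0.38, 0.625) were not called. IL20RB was called higher in 4 of the alternatives, among them the H460 arrays alone (adjusted p = 0.00311) and the test that the methods name.

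How far these changes were particular to H460 was tested as the difference between the change in H460 and the mean change in A549, H441 and H2009. It passed the same thresholds for 662 genes (3.59%), 259 more positive in H460 (1.41%) and 403 more negative (2.19%), and for 39 (0.212%) and 60 (0.326%) of them the difference from each of the 3 lines alone passed too. Calls within the other lines numbered 852 in A549 (4.63%), 2636 in H441 (14.3%) and 904 in H2009 (4.91%). PRKCD was not among the genes that differed: its change in H460 was 0.06 more negative than the mean of the others (-1.97, adjusted p = 0.940). That mean covered unequal changes of PRKCD, -1.26 in A549, -2.40 in H441 and -2.25 in H2009. The difference of -0.78 between H460 and A549 did not pass (adjusted p = 0.147). The part of unequal depletion in the differences between lines was not tested. Without single arrays of the other lines the count of differences reached 916 at most, and it was lower by over 1.5 times without δ193 replicate 1 (399), 2 (403) or 3 (388) or δscr replicate 2 (375) or 3 (374) of H460. The 662 calls included 282 that were kept in all 24 fits without 1 array, and all 99 genes that differed from each line alone were among them, while 55 of the 99 kept all 3 pairwise differences as well.

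Of the 370 genes higher in H460, 153 passed the test of the difference in the same direction, and of the 633 lower, 246 did. Genes called in no other line in either direction numbered 160 of the 370 and 233 of the 633. The genes higher in H460 had a median change of 0.55 there, 0.01 in A549, 0.23 in H441 and 0.10 in H2009, and the genes lower in H460 had medians of -0.50 in H460, -0.06 in A549, -0.35 in H441 and -0.03 in H2009. Of the decreases, 315 were also lower in H441, which is 49.8% of those in H460 and 23.7% of those in H441, whereas 91 were shared with A549 (14.4% of those in H460, 19.2% of those in A549) and 78 with H2009 (12.3% and 18.8%). Of the increases, 133 were shared with H441 (35.9% of those in H460, 10.2% of those in H441), 24 with A549 (6.5% and 6.4%) and 64 with H2009 (17.3% and 13.1%). Across genes, which are not independent replicates, the change in H460 correlated with that in H441 at r = 0.35, in H2009 at 0.16 and in A549, the other K-ras independent line, at 0.07.

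**Figure D4:**
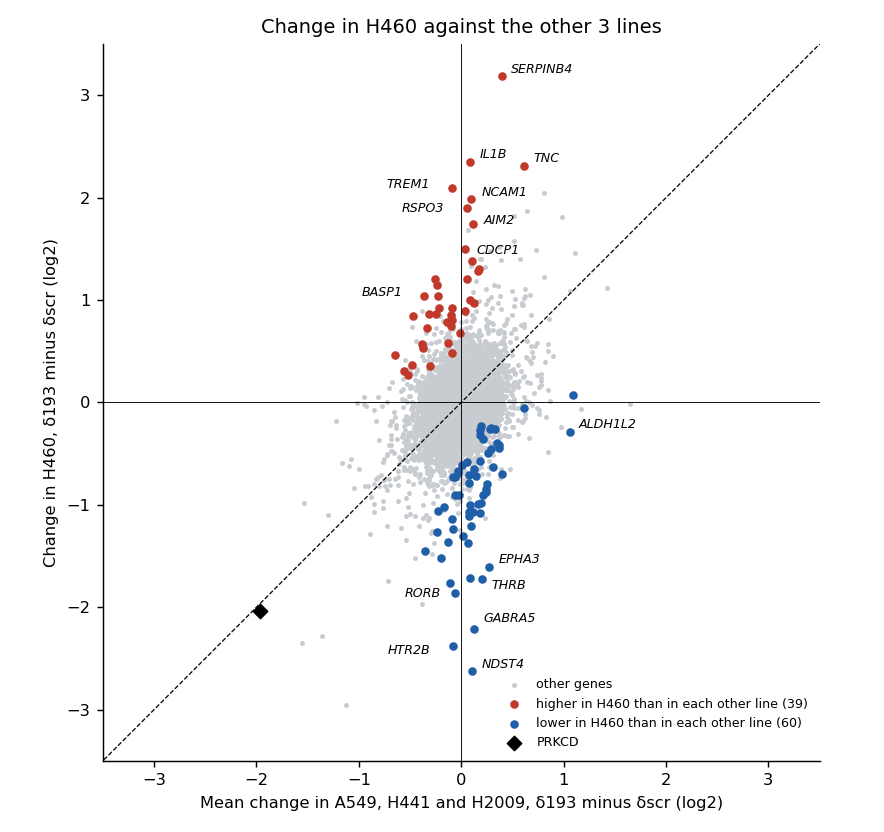
Change of each gene in H460 (vertical axis) against its mean change in A549, H441 and H2009 (horizontal axis), both δ193 minus δscr on the log2 scale; the dashed line marks equal change. Red and blue points are the 39 and 60 genes that differ from each other line, most of which lie near 0 on the horizontal axis, and PRKCD (black diamond) lies next to the line of equal change at -2.03 and -1.97.

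Among the genes that also differed from each other line alone, SERPINB4 had the largest positive difference, 2.79 ± 0.28 (adjusted p = 1.03e-06), with a change of 3.18 in H460, 0.17 in A549, 0.78 in H441 and 0.25 in H2009. IL1B followed with 2.26, TREM1 with 2.19 and NCAM1 with 1.89, and none of these 3 was called in another line, while SERPINB4 was also called higher in H441. In 14 of the 24 fits without 1 array IL1B lost its difference from at least 1 line alone, and it kept that from the mean in all. RSPO3 changed by 1.90 in H460, -0.52 in A549, 0.62 in H441 and 0.07 in H2009, a difference of 1.84 ± 0.16. TNC rose in H460 by 2.31 and had a change of 0.40 in A549, 0.96 in H441 and 0.47 in H2009, a difference of 1.70. AIM2 (1.63), KRT19 and CDCP1 (1.46 each) and BASP1, a membrane-bound signalling protein (1.4), completed the largest 10 of these genes. CXCL8 (1.62) passed against the mean but not against each line. BASP1 changed by 1.03 in H460 and by -1.14 in H441. CD274 was not particular to H460 by this test, with 1.81 in H460, 2.28 in H441, 0.75 in H2009 and -0.09 in A549 (difference 0.83, adjusted p = 0.222), and SERPINB3 (1.30, 0.190) and OR51B4 (1.23, 0.0539) did not pass either. IL11 (1.07, adjusted p = 5.19e-06) passed against the mean but not against H441, where it changed by 1.43.

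The most negative difference among genes that differed from each line alone was that of NDST4, -2.74 ± 0.19 (adjusted p = 2.98e-09), with a change of -2.63 in H460, 0.35 in A549, -1.07 in H441 and 1.04 in H2009. GABRA5 followed with -2.34, HTR2B with -2.30, THRB with -1.92, EPHA3 with -1.88, RORB with -1.81, PPARGC1A with -1.80, CDH8 with -1.66 and the zinc finger protein ZNF704 with -1.44. In EPHA3 the change was -1.60 in H460 and 0.87 in H2009, and in THRB -1.72 in H460 and 0.72 in A549. ALDH1L2, a mitochondrial enzyme of folate metabolism, was the tenth of these genes: it rose in A549 (1.02), H441 (1.08) and H2009 (1.10), while H460 arrays measured 6.83, 6.85 and 6.85 in δ193 cells, against 7.09, 7.14 and 7.16 in δscr cells (-0.29 ± 0.25, adjusted p = 0.638). The difference of ALDH1L2 from at least 1 line alone was lost in 14 of the 24 fits without 1 array. OTULINL (-1.83), SEMA6D (-1.59) and AKR1B10 (-1.36) had more negative differences than ALDH1L2 (-1.35) but did not pass against each line. OTULINL, SPINK6 and FABP4, which fell most steeply beside these, had changes of -3.11, -3.75 and -4.02 in H441 and of -0.18, 0.02 and 0.10 in A549.

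**Figure D5:**
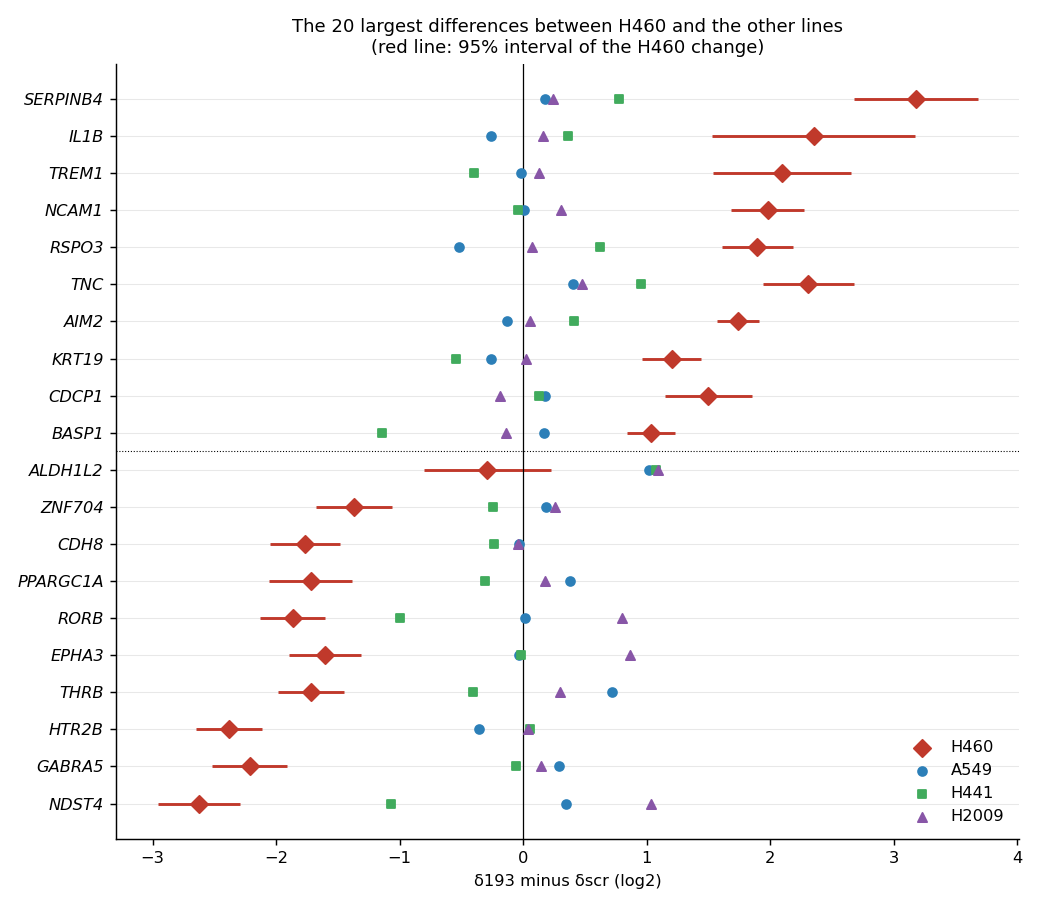
Change (δ193 minus δscr, log2, horizontal axis) of the 20 genes with the largest differences that passed against the mean and against each other line, 10 more positive in H460 above the dotted line and 10 more negative below; red diamonds are H460 with the 95% interval of its change, and the other symbols A549, H441 and H2009. For ALDH1L2 the H460 interval crosses 0 and the other lines lie between 1.02 and 1.10. For each of the 20 genes the H460 symbol lies at the outer end of its row, to the right above the dotted line and to the left below it. This place was fixed by the choice of genes that differ from each other line in 1 direction.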

How the data were processed

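The authors deposited 1 log2 value per transcript cluster and array, computed with RMA in Affymetrix Power Tools. RMA subtracts background, makes the arrays alike in distribution and combines the probes of a cluster. No source used here gives a version, and no scanner file was used. Of 33252 clusters, 19460 have 1 gene symbol in the platform annotation (19429 were given their current symbol through the Entrez ID), 1754 have several and 12038 none; only the first were analysed, and for 769 genes with more than 1 cluster the one with the highest mean over all arrays was used, which gave 18417 genes. Array signal has no read depth, and precision rests on the number of arrays.

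limma 3.58.1 in R 4.3.3 was fitted to all 24 arrays with 8 group means, so that the spread was estimated over 16 residual degrees of freedom; contrasts were δ193 minus δscr in H460, and this change minus the mean change in the other 3 lines. The Benjamini-Hochberg adjustment covered all 18417 genes. Standard errors and 95% intervals are those of the fit. That the replicates came from separate cultures is taken from the words biological replicates in the methods. The labels do not say whether arrays of the same replicate number were made together. Their values gave no sign of it (correlation of deviations -0.06, 0.021 and -0.085 for numbers 1, 2 and 3). The study's test, Student's without adjustment, was run as an alternative, with other samples in the fit, spread models, fold thresholds, normalizations, filters and omissions of arrays. The script was tested on simulated data.

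The members and the 41 gene lists, which were written from memory, were chosen with earlier results of these data known. Genes were named by rule: PRKCD, the 15 largest increases and decreases without overlap of the groups, up to 5 called members per list, the 10 largest positive and negative differences that passed against each other line, and the genes the study names; not every gene the rule picks is printed, and genes outside the rule (the families and neighbours at the end, members given as not called, and further called list members) were chosen after their values were seen. Promoters and chromosome neighbours came from RefSeq tables of GRCh38.p14; 14239 genes had a promoter window.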

Additional observations from a re-analysis of the deposited data

Results flagged for a closer look

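The change in H460 was set against the mean change in the other 3 lines, as H460 minus the others on the log2 scale, and 91 of the genes named in the text passed the limma test of this difference with an adjusted p under 0.05 and a difference of at least 0.32 in size. The values below are those differences. With each of the 24 arrays left out in turn 69 of them passed every time and 22 did not. ABCC3 was lost in 17 omissions, DUSP10 in 15, CXCL8, TLR3 and FDPS in 6, HBEGF and MT2A in 5, NT5E, MAP3K14, PTGER2, RAB23 and MT1X in 4, PDCD1LG2 and STAT3 in 3, CXCL14, PKN3, FOSL1, PLAUR and ST14 in 2, and FABP4, GALC and BCL2 in 1.

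For 44 genes the change in H460 lay above that mean. The largest were SERPINB4 (2.79), IL1B (2.26), TREM1 (2.19), NCAM1 (1.89), RSPO3 (1.84), TNC (1.70), AIM2 (1.63), CXCL8 (1.62), CDCP1 (1.46), KRT19 (1.46), BASP1 (1.4) and ICAM1 (1.32). Next came CCL5 (1.27), BDKRB1 (1.27), ABI3BP (1.24), EDIL3 (1.21), AFAP1-AS1 (1.21), GABRA2 (1.20), OR51B5 (1.15), HOXC5 (1.12), FBN1 (1.11), IL11 (1.07), PDCD1LG2 (1.0) and PDGFC (0.98). Smaller ones were CYP1B1 (0.97), TGFB2 (0.92), CD14 (0.91), MT1X (0.81), HBEGF (0.75), NT5E (0.74), MT2A (0.74), MT1G (0.72), CTSB (0.67), CXCL14 (0.62), PTGER2 (0.62) and BMP2 (0.61). Then followed DUSP10 (0.60), PLAUR (0.57), ST14 (0.57), RAB23 (0.55), SLC2A1 (0.53), FOSL1 (0.52), GALC (0.52) and STAT3 (0.45). Of these, RAB23 and GALC fell in H460, by less than in the mean of the other lines.

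For 47 genes it lay below. The most negative were NDST4 (-2.74), GABRA5 (-2.34), HTR2B (-2.30), THRB (-1.92), EPHA3 (-1.88), OTULINL (-1.83), RORB (-1.81), PPARGC1A (-1.80), CDH8 (-1.66), SEMA6D (-1.59), ZNF704 (-1.44) and AKR1B10 (-1.36). After these stood ALDH1L2 (-1.35), GABRA3 (-1.32), PEG10 (-1.32), AFAP1 (-1.23), F5 (-1.15), LAMA4 (-1.10), MAPT (-1.10), SH3GL2 (-1.06), NRG4 (-1.04), SYT14 (-1.03), FABP4 (-0.93) and DUSP9 (-0.86). Less negative were SEMA3E (-0.86), PCDH9 (-0.83), MMP16 (-0.82), SAMD9L (-0.81), TNS1 (-0.81), GCLC (-0.76), HOXD13 (-0.75), GABRE (-0.74), AKR1C3 (-0.72), LAMA1 (-0.71), CDH19 (-0.66) and ABCC3 (-0.63). The remaining values included HNF4G (-0.62), PKN3 (-0.61), MAP3K14 (-0.58), CDH10 (-0.57), TLR3 (-0.54), BCL2 (-0.54), ROBO1 (-0.50), AKR1C2 (-0.46), CTSD (-0.45), FDPS (-0.45) and CPS1 (-0.40).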

How the results depend on the processing

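No result named here reversed. PRKCD stayed called in each setting (-2.10 to -1.97 with H460 arrays left out). The 6 H460 arrays alone gave 1583 calls (658 higher), and 992 of the 1003 remained. Without the H441 arrays, whose spread was the widest, 587 were higher. Array weights gave 1787 calls (797 higher, 990 lower), the methods' Student test without adjustment 1607 (673 higher), and a fold of at least 1.5 left 388 (161 higher, 227 lower), 97 of them in the lists in place of 197, with 1.85% in place of 6.54% called in the highest of 4 level sets. With single H460 arrays left out, calls were 628 to 792 (229 to 281 higher, 384 to 511 lower), calls in the lists 133 to 155, and the share in that set 4.15% to 5.02%. The Student test after Benjamini-Hochberg gave 907 calls, of which 703 were among the 1003, quantile normalization 869 (811), cyclic loess 969 (879) and a filter at the median level 855 (747).

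Genes that differed from the mean of the other lines numbered 1473 without the H441 arrays (565 higher, 908 lower), where 627 differed from each line left, 1760 with array weights (787 higher, 973 lower; 295 from each line) and 325 at a fold of at least 1.5 (141 higher, 184 lower). With single arrays left out they were 374 to 916 (143 to 362 higher, 224 to 567 lower; 64 to 139 from each line). The replicate number as a block gave 1030 calls in H460, of which 897 were among the 1003. The labels do not say whether the numbers pair the arrays, and the values gave no sign of it. CD14, CYP1A1, ERBB2, JUND, PKN3 and ST14 were not called with this block, and ISG15 and CDH1 were. The causes were not tested. In the lowest level set 0.87% were called, and the part of low signal in this was not tested.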

Other observations

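The families and neighbours below were picked after their values were seen. Of 13 metallothioneins measured, small proteins that bind zinc and copper, 6 were called higher in δ193 cells, beside 2.01% of all genes, and none lower. All 13 had a change above 0, and their median was 0.60 on the log2 scale against 0.01 over all genes. MT2A measured 11.99, 11.71 and 11.86 in δ193 cells, against 10.88, 10.86 and 10.82 in δscr cells (1.0 ± 0.16, adjusted p = 0.000255), MT1X changed by 0.99 and MT1G by 0.96. The genes of this family share most of their sequence, so probes may read several of them and the values are not independent. The zinc exporter SLC30A1, which zinc also induces, had a change of -0.43 and lost its call without δ193 replicate 3 or without δscr replicate 2 or 3. The metal response letters TGCACNC and TGCGCNC, searched on both strands, were found in 35.34% of the promoter windows of genes called higher, 35.48% of those called lower and 34.99% of all.

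Among genes of cell adhesion and of neurons, 6 of 42 protocadherins were called lower and none higher (median -0.10), among them PCDH9 (-0.90, adjusted p = 9.30e-06), and of 21 cadherins 4 were called lower and none higher (median 0.03), with CDH19 at -1.11 and CDH10 at -1.11. Beside these counts and the next stand 3.44% lower and 2.01% higher over all genes. A change above 0 was found in 15 of the 42 protocadherins and 13 of the 21 cadherins. Of 15 subunits of the GABA-A receptor 3 were called lower and 1 higher (median 0.06): GABRA3 changed by -1.30, GABRA5 by -2.21 and GABRE by -0.45, and GABRA2 rose by 1.47 (adjusted p = 4.68e-06). GABRE lost its call whichever H460 array was left out. MAPT, the microtubule protein tau, fell by 1.37 (adjusted p = 2.83e-06), and PEG10, an imprinted gene derived from a retrotransposon, by 1.52 (1.03e-05).

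AFAP1, an adaptor that binds actin filaments, measured 6.50, 6.41 and 6.49 in δ193 cells, against 7.60, 7.68 and 7.84 in δscr cells (-1.24 ± 0.10), while its antisense transcript AFAP1-AS1 measured 9.15, 9.05 and 9.09 in δ193 cells and 7.63, 7.67 and 7.80 in δscr cells (1.4 ± 0.17). The olfactory receptor genes OR51B4 (1.87) and OR51B5 (1.20, adjusted p = 4.18e-05) and the embryonic globin HBE1 (1.4, adjusted p = 0.00107) lie in 1 region of chromosome 11 and rose, and the adult globin HBB had a change of -0.23 that did not pass. Of 370 genes called higher, 9.2% had the next tested gene on either side called higher too, beside 3.9% of the other genes, and of 631 called lower with a position 12.2% had such a neighbour called lower, beside 6.5%. Adjacent genes of 1 family can share probes, whose part in these shares was not tested.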
